A study of Mus musculus with 16 samples.

Results

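The genes described here are the subunits of the beta2 integrins and the stretch of chromosome 7 around Itgax, in dendritic cells (DCs) sorted from mouse spleen. They were taken from the count table by name: Itgam, Itgax, Itgad and Cox6a2, which are neighbours on chromosome 7, with Itgal and Itgb2 as comparison genes, 6 of the 24116 genes in the table. All 6 passed the filter on low counts, which kept 13790 genes. The labels divide 16 libraries by DC subset (Dec205, pDC, Esamlo or Esamhi) and by genotype (WT or CKO), which makes 8 groups of 2. The receptor Dec205 marks the classical DCs that cross-present antigen, pDC stands for plasmacytoid DC, and the ESAM protein divides the other main lineage of classical DCs into Esamlo and Esamhi. The series' design text names DCs deficient in the ETS-family transcription factor Etv6, which are taken to be the CKO cells. For strain, age, sorting gates and the driver of the deletion the labels have no entry. Genes are often deleted in DCs with a Cre recombinase placed under Itgax sequences on a long artificial chromosome, which can bring along copies of neighbouring genes. Whether the CKO mice carried such a transgene is not known from these sources, and reads from added copies and from the mouse's own copies cannot be told apart in a table of counts per gene.

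Beta2 integrins are adhesion receptors of white blood cells. Each is a pair of an alpha subunit and the shared beta2 subunit CD18, the product of Itgb2. Itgal encodes CD11a, which with CD18 forms LFA-1 and binds ICAM proteins on other cells. Itgam encodes CD11b, which forms Mac-1, a receptor for complement fragments and fibrinogen. Itgax encodes CD11c, the classical surface marker of mouse DCs, and Itgad encodes CD11d. Cox6a2 belongs to another family: it encodes a subunit of cytochrome c oxidase in the respiratory chain, is best known from heart and skeletal muscle, and is a recognised pDC transcript. CD11c and CD11b are common sorting markers for DC subsets, so differences of Itgax and Itgam between subsets can be set by the sort.

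On the mouse genome GRCm38, to which mm10 corresponds, Itgam (Entrez 16409) lies at chr7:128062640-128118491, Itgax (16411) at chr7:128129526-128150657 and Itgad (381924) at chr7:128173933-128205504, all on the plus strand. Cox6a2 (12862) lies at chr7:128205435-128206366 on the minus strand, so that its end overlaps the end of Itgad by 70 bases. The 4 genes span 144 kb, with gaps of 11 kb between Itgam and Itgax and 23.3 kb between Itgax and Itgad. Itgal (16408) is on the same chromosome, 728 kb before Itgam, at chr7:127296139-127335137, and Itgb2 (16414) is at chr10:77530329-77565708. The exons of the GENCODE M21 models add up to 5024 bases for Itgam, 4803 for Itgax, 4510 for Itgad, 680 for Cox6a2, 6569 for Itgal and 3052 for Itgb2.

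Of the 6 genes, 2 had an entry in RefSeq's table of promoter windows (GRCm38.p6, from 250 bases before the start to 50 after it), and both are shown because they begin the stretch in which counts were higher in CKO and because ETS factors bind sequences with a GGAA core. Capitals mark GAGGAA or its reverse complement TTCCTC, the form of the core often found in myeloid promoters. The windows are chr7:128062390-128062689 for Itgam and chr7:128129300-128129599 for Itgax, both on the plus strand and written 5′ to 3′. The Itgax window is set on a start slightly after the gene start of 128129526 given above.
Itgam: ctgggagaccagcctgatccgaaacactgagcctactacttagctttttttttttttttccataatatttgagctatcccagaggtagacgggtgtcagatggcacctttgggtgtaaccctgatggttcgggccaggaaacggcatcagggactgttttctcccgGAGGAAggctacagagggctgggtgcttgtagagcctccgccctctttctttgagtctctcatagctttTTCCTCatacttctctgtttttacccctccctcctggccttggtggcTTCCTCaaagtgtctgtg
Itgax: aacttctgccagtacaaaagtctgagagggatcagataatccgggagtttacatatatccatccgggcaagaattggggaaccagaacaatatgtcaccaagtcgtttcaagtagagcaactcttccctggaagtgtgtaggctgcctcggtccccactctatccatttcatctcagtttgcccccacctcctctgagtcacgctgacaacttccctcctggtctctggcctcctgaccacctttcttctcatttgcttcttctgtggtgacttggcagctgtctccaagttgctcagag
The Itgam window held 3 matches to GAGGAA on either strand, at positions -84, -15 and 32, counted from 0 at the first base after the 250 of the upstream part, and 5 to GGAA, of which 3 are the ones inside GAGGAA. The Itgax window held none to GAGGAA and 4 to GGAA. Neither window matched CCGGAA. Of 32851 promoter windows of the same length, 96% held GGAA, 28.3% GAGGAA and 14.9% CCGGAA. These matches describe the letters of the windows only.

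The libraries held 14434287 to 20709265 counts. The subset names were checked against markers. The summed level of the 8 Dec205 markers was 4306 to 4347 CPM (counts scaled to a library of fixed size) in Dec205 WT and at most 1146 CPM in the other WT groups, and that of the 8 pDC markers was 14079 to 14102 CPM in pDC WT and at most 341 CPM elsewhere in WT. The 4 Esamhi markers summed to 991 to 1003 CPM in Esamhi WT and 265 to 294 CPM in Esamlo WT. The 5 Esamlo markers summed to 568 to 592 and 3756 to 4545 CPM. Esam was at 144 to 151 CPM in Esamhi WT and 11.5 to 13.7 CPM in Esamlo WT, and Lyz2 at 263 to 286 and 2512 to 3268 CPM. Hes1 of the Esamhi list went the other way, at 26 to 31.1 and 32.2 to 47.6 CPM. Etv6 was detected in every library, and its count fell in Dec205 CKO (log2 fold change -0.75, SE 0.1, edgeR adjusted p = 0.000996) but not past the threshold in the other subsets. Its mean CPM over the WT and then the CKO libraries was 349 and 343 for pDC (log2 -0.03), 469 and 366 for Esamlo (-0.36), and 471 and 412 for Esamhi (-0.19). Which exons were deleted is not stated in the labels, so a count over the whole gene does not check the deletion. Xist was at 0 to 1.44 CPM in WT and 114 to 355 CPM in CKO, so sex and genotype coincide in all 16 libraries and cannot be told apart. Nothing in the labels ties a group's libraries to separate animals, and the spread behind each p-value may therefore be technical.

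**Figure D1:**
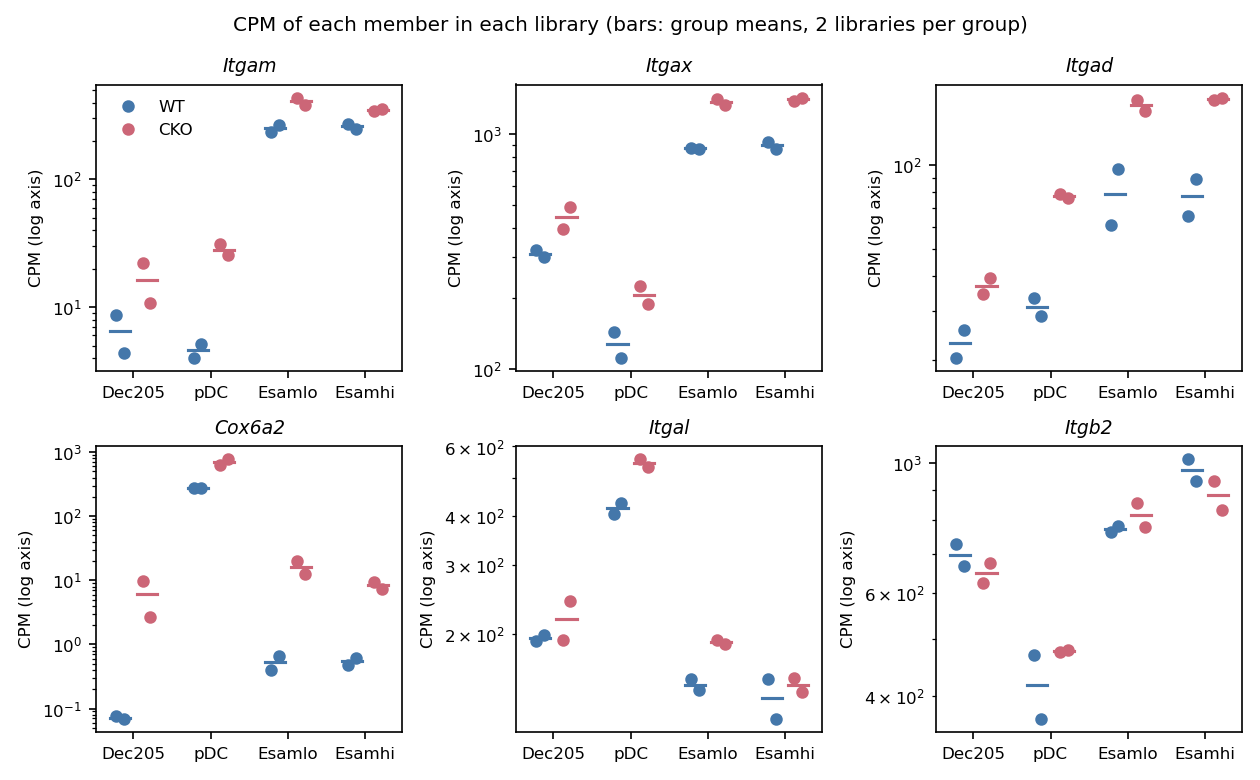
CPM of the 6 genes in each library on a log axis, by subset, with WT in blue and CKO in red; dots are libraries and short bars are means of 2 libraries. In all 4 subsets both CKO dots lie above both WT dots for Itgam, Itgax, Itgad and Cox6a2, while those of Itgb2 do so in pDC only.

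The first question is how the genes were expressed across the subsets in the WT libraries. The CKO libraries play no part in these contrasts except in the estimate of spread, so the 6 genes were tested with edgeR's quasi-likelihood test, adjusted over all 13790 genes. Esamhi and Esamlo expressed the genes most alike, with log2 differences from -0.11 (Itgal) to 0.33 (Itgb2). None of the 6 was called between them, where 5.81% of all genes were called. With a share this low, no call among 6 genes says little about them. Between pDC and Esamlo, and between pDC and Esamhi, all 6 were called, against 45.7% and 47.1% of all genes. The same WT libraries serve as the baseline of the CKO comparisons below.

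Itgax was at 879 and 869 CPM in the Esamlo WT libraries, 928 and 867 CPM in Esamhi, 321 and 301 CPM in Dec205, and 144 and 112 CPM in pDC. The order was thus Esamhi with Esamlo, then Dec205, then pDC, with no overlap between these 3 levels. Dec205 was below Esamlo by 1.49 on the log2 scale (-1.49, SE 0.13, edgeR adjusted p = 2.48e-06) and above pDC by 1.28 (SE 0.13, edgeR adjusted p = 3.88e-06). Between Esamhi and Esamlo the difference was 0.04 (SE 0.13, edgeR adjusted p = 0.939).

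Itgam, the CD11b gene, was at 234 and 268 CPM in Esamlo WT, at 274 and 246 CPM in Esamhi, at 8.73 and 4.4 CPM in Dec205 and at 4.01 and 5.18 CPM in pDC. It thus fell into a high and a low pair of subsets. Esamlo exceeded pDC by a log2 difference of 5.77 (pDC against Esamlo -5.77, SE 0.34, edgeR adjusted p = 2.62e-08), while Dec205 and pDC did not pass the test against each other (0.50, SE 0.36, edgeR adjusted p = 0.269). Without Dec205 WT replicate 1 that last difference was -0.07.

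Itgad, the CD11d gene, was at 60.8 and 96.5 CPM in Esamlo WT, 65.7 and 89.3 CPM in Esamhi, 33.4 and 28.9 CPM in pDC and 20.4 and 25.7 CPM in Dec205. It showed the same split as Itgam with a smaller step. Dec205 was below Esamlo (-1.77, SE 0.21, edgeR adjusted p = 3.86e-05), as was pDC (-1.33, SE 0.21, edgeR adjusted p = 0.000181). Dec205 and pDC did not differ past the threshold (-0.43, SE 0.21, edgeR adjusted p = 0.111); scaled by library size only, that difference was -0.68 with an adjusted p of 0.0167, while the median over all genes moved by -0.24.

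Cox6a2 had the narrowest expression. It was at 272 and 278 CPM in pDC WT, at 0.398 and 0.664 CPM in Esamlo, at 0.479 and 0.623 CPM in Esamhi, and at 0.0759 and 0.0676 CPM in Dec205, where each library held 1 count. The pDC level was 529-fold that of Esamlo (95% exact interval for counting error 330.001 to 908) and 498-fold that of Esamhi (326 to 806). Against the 2 counts of Dec205 the ratio was 3846 (1065 to 31765). These 3 differences were called (edgeR adjusted p from 2.07e-08 to 2.93e-08). The Dec205 values lay below those of Esamlo and Esamhi but did not pass edgeR's test (adjusted p = 0.202 and 0.168), although they passed DESeq2's (0.0354 and 0.0255).

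Itgal, the CD11a gene, was highest in pDC, where Itgax was lowest. It was at 404 and 431 CPM in pDC WT, at 192 and 199 CPM in Dec205, at 153 and 144 CPM in Esamlo and at 153 and 121 CPM in Esamhi. pDC exceeded Dec205 (Dec205 against pDC -1.09, SE 0.12, edgeR adjusted p = 9.77e-06), and Dec205 exceeded Esamhi (0.51, SE 0.12, edgeR adjusted p = 0.00558) and Esamlo (0.40, SE 0.12, edgeR adjusted p = 0.0246). The last call rested on every library. Without Dec205 WT replicate 1 or 2 the adjusted p was 0.0632 and 0.0924, and without Esamlo WT replicate 1 or 2 it was 0.0592 and 0.135. The call against Esamhi was lost without Esamhi WT replicate 2 (edgeR adjusted p = 0.0699).

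Itgb2, the shared beta subunit, varied least. It was at 1017 and 932 CPM in Esamhi WT, 765 and 782 CPM in Esamlo, 727 and 668 CPM in Dec205 and 471 and 365 CPM in pDC. pDC was the lowest, below Dec205 by 0.74 (Dec205 against pDC 0.74, SE 0.11, edgeR adjusted p = 0.000127). Esamhi exceeded Dec205 (Dec205 against Esamhi -0.48, SE 0.11, edgeR adjusted p = 0.00426). Between Esamhi and Esamlo edgeR's test was not passed (0.33, SE 0.11, edgeR adjusted p = 0.11), but DESeq2's was (DESeq2 adjusted p = 0.0237). Dec205 and Esamlo did not pass the test (-0.15, SE 0.11, edgeR adjusted p = 0.333). Counting members, 4 of 6 were called between Dec205 and pDC (47.6% of all genes), 4 between Dec205 and Esamlo (34.2%) and 5 between Dec205 and Esamhi (37.4%).

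The second question is how the genes differed between CKO and WT within each subset. The 6 genes were chosen with such differences known, among them that of Itgam in pDC and of Cox6a2 in Dec205. All values of CKO against WT below are therefore a description without a test. In every subset all 4 genes of the block were higher in both CKO libraries than in both WT libraries, 16 of 16 gene and subset combinations. The shares of all tested genes so placed were 20.1% (Dec205), 20.6% (pDC), 23.1% (Esamlo) and 22.4% (Esamhi). Itgal and Itgb2 were so placed in 3 of 8 combinations.

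Itgax had a similar ratio in all 4 subsets. In Dec205 it was at 321 and 301 CPM in WT and 395 and 491 CPM in CKO, a fold of 1.42. In pDC it was at 144 and 112 CPM in WT and 226 and 189 CPM in CKO, a fold of 1.62. The 2 classical subsets of the ESAM pair started from a level several times higher and showed much the same ratio.

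In Esamlo, Itgax was at 879 and 869 CPM in WT and 1418 and 1329 CPM in CKO (1.57-fold). In Esamhi it was at 928 and 867 CPM in WT and 1389 and 1436 CPM in CKO (1.57-fold). The log2 fold changes ran from 0.51 to 0.70 with a standard error of 0.13 each, so the subsets lay within about the error of each other. Whether they differ was not tested.

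Itgad was higher in CKO by a larger ratio. In Dec205 it was at 20.4 and 25.7 CPM in WT and 34.5 and 39.5 CPM in CKO (1.6-fold). In pDC it was at 33.4 and 28.9 CPM in WT and 79 and 76.1 CPM in CKO (2.49-fold). The highest WT library stood below the lowest CKO library in each of these subsets.

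In Esamlo, Itgad went from 60.8 and 96.5 CPM to 171 and 156 CPM (2.08-fold), and in Esamhi from 65.7 and 89.3 CPM to 171 and 174 CPM (2.23-fold). All 4 CKO libraries of these subsets stood above all 4 WT libraries. Itgad shares sequence with Itgax: of the 50-base stretches in Itgad transcripts, 8.43% also occur in Itgax transcripts, and such reads could be counted for either gene. No 50-base stretch of Itgam occurs in Itgax or Itgad.

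Itgam varied most in its ratio among the integrins. In pDC it was at 4.01 and 5.18 CPM in WT and 31.1 and 25.4 CPM in CKO, a fold of 6.13 (log2 2.62, SE 0.32). In Dec205 it was at 8.73 and 4.4 CPM in WT and 22 and 10.8 CPM in CKO, a fold of 2.54 (log2 1.35, SE 0.32). The Dec205 libraries were far apart within each genotype, and without CKO replicate 1 the log2 value was 0.74. In CKO too, Itgam in Dec205 and pDC was far below its level in the ESAM subsets.

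In Esamlo, Itgam was at 234 and 268 CPM in WT and 438 and 383 CPM in CKO (1.63-fold), and in Esamhi at 274 and 246 CPM in WT and 346 and 355 CPM in CKO (1.35-fold). These were the smallest ratios of the gene. Itgam is also a marker of monocytes, macrophages, neutrophils and CD11b+ classical DCs, so the marker levels of those cells stand beside it. In pDC the summed level of the 9 macrophage markers was 17.4 to 21.4 CPM in WT and 12.1 to 17.9 CPM in CKO, that of the 6 markers of the ESAM lineage (cDC2) 1798 to 1883 and 1801 to 1873 CPM, and that of the 8 monocyte markers 3350 to 3397 and 2760 to 3113 CPM. Most of the monocyte sum was Ly6c2 (1952 to 1976 CPM in WT, 1361 to 1550 CPM in CKO) and Plac8 (1073 to 1123 and 1104 to 1295 CPM), while Ms4a4c of the same list was at 11.1 to 16.4 CPM in WT and 46.5 to 48.3 CPM in CKO. The 9 neutrophil markers summed to 5.13 to 14.4 CPM in WT and 14.7 to 14.9 CPM in CKO, with 2 and 1 of them at 0 in both libraries. Of these lists only the neutrophil one was higher in both pDC CKO libraries than in both WT libraries, and the part of it and of Ms4a4c in the result was not tested. The 7 B cell markers, a list Itgam does not mark, also went from 135 to 153 CPM up to 171 to 235 CPM in pDC. None of the 7 was called there, beside 1.85% of all genes in either direction.

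In Dec205 the 8 monocyte markers summed to 711 to 728 CPM in WT and 2154 to 2466 CPM in CKO. Most of that rise was Plac8 (308 to 340 CPM in WT, 1844 to 2117 CPM in CKO). Treml4 of the same list fell (321 to 379, then 221 to 249 CPM). Of the 8, 4 were called higher and 1 lower, beside 3.44% and 3.34% of all genes. The 7 B cell markers summed to 125 to 144 and 327 to 596 CPM, with 2 called higher. The macrophage markers were lower there, at 192 to 223 CPM in WT and 126 to 136 CPM in CKO. In Esamhi the 9 neutrophil markers summed to 10.7 CPM in both WT libraries and 45.4 to 48.7 CPM in CKO, and the 5 Esamlo markers to 568 to 592 CPM and 1128 to 1232 CPM. In Esamlo the neutrophil markers summed to 21.9 to 25.9 CPM in WT and 51.9 to 53.1 CPM in CKO. The 8 monocyte markers summed to 875 to 993 CPM in Esamlo WT and 1128 to 1198 CPM in CKO. In Esamhi they summed to 524 to 615 and 812 to 889 CPM. Of these 8, 1 was called higher in each subset, beside 0.457% and 0.674% of all genes. The 7 B cell markers went from 196 to 269 up to 294 to 730 CPM in Esamlo. Their Esamhi sums were 129 to 139 and 185 to 251 CPM. The macrophage sums overlapped in both subsets, and the cDC2 sums were lower in CKO. The part of these markers in the values of the block was not tested. In sorted bulk samples, more RNA per cell and more cells of a kind cannot be told apart.

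Cox6a2 had the largest ratios and appeared in subsets that barely expressed it in WT. In Dec205 it went from 1 and 1 counts in WT to 188 and 42 counts in CKO, or 0.0759 and 0.0676 CPM to 9.64 and 2.72 CPM. The ratio was 92.1, with a 95% exact interval for counting error of 25.2 to 765. The CKO libraries lay far apart, with replicate 1 the higher. Without CKO replicate 1 the fitted log2 fold change was 5.12 in place of 6.34.

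In Esamlo, Cox6a2 was at 0.398 and 0.664 CPM in WT and 20.2 and 12.5 CPM in CKO (32-fold, interval 19.8 to 55.3). In Esamhi it was at 0.479 and 0.623 CPM in WT and 9.29 and 7.38 CPM in CKO (14.9-fold, interval 9.58 to 24.5). In pDC, where it was abundant to begin with, it went from 272 and 278 CPM to 620 and 779 CPM, a fold of 2.54 (log2 1.35, SE 0.32). The intervals cover counting error only.

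Because Cox6a2 is a pDC gene, its level was set beside that of Siglech, a surface receptor of pDCs. Siglech was at 4.46 and 2.66 CPM in Dec205 CKO, 4.4 and 3.73 CPM in Esamlo CKO and 0.814 and 1.52 CPM in Esamhi CKO, against 5671 and 5978 CPM in pDC CKO. At the ratio of the pDC CKO libraries, that much Siglech would go with 0.536 and 0.319 CPM of Cox6a2 in Dec205, 0.528 and 0.448 CPM in Esamlo, and 0.0978 and 0.183 CPM in Esamhi. The measured Cox6a2 levels in CKO were all above these, from 2.72 to 20.2 CPM. In WT, at the ratio of the pDC WT libraries, Esamhi was also above, with 0.479 and 0.623 CPM beside 0.037 and 0.0437 CPM, while Esamlo (0.398 and 0.664 beside 0.338 and 0.29 CPM) and Dec205 (0.0759 and 0.0676 beside 0.0865 and 0.0503 CPM) lay closer to it. The part of pDC RNA in these levels was not tested further. Of the 8 pDC markers in the list, 5 were called higher in Dec205 CKO and none in the CKO of Esamlo or Esamhi. The shares of all genes called higher were 3.44%, 0.457% and 0.674%. The calculation used Siglech alone, and other markers could give other levels. In Dec205, Runx2 went from 11 to 19.5 CPM in WT up to 111 to 159 CPM in CKO. Ly6d went from 19.6 to 20.7 up to 52.6 to 148 CPM, while Ccr9 fell from 79.3 to 98.9 down to 38 to 66.6 CPM.

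**Figure D2:**
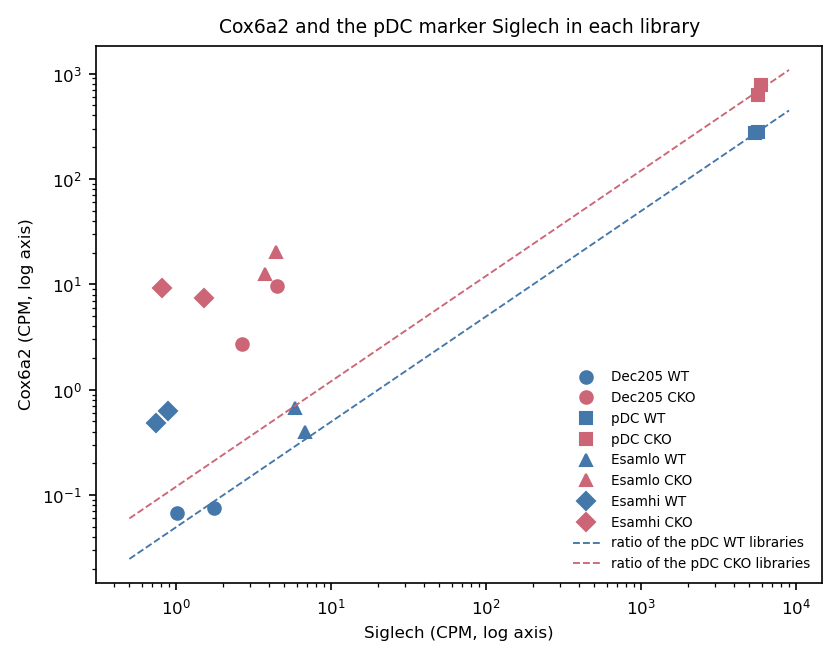
Cox6a2 against Siglech in each of the 16 libraries, both in CPM on log axes; shapes are subsets, blue is WT and red is CKO, and dashed lines extend the ratio of the pDC libraries of each genotype. The 6 CKO libraries of Dec205, Esamlo and Esamhi lie above the red line, at 2.72 to 20.2 CPM of Cox6a2.

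The 70 bases that Cox6a2 shares with the opposite strand of Itgad are another possible source of reads, since SMART-seq v4 cDNA does not keep the strand. Spread evenly over its exons, Itgad would place 2.54 CPM on them in Esamlo CKO, 2.68 CPM in Esamhi CKO and 0.574 CPM in Dec205 CKO. The Cox6a2 means there were 16.3, 8.34 and 6.18 CPM. In the WT libraries of Esamlo the same calculation gave 1.22 CPM beside a measured 0.531 CPM, the lower of the pair. The GENCODE model of Itgad runs past Cox6a2 to position 128223816, and the part of unspliced reads from it was not tested.

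The comparison genes stayed closer to WT. Itgal was at 192 and 199 CPM in Dec205 WT and 193 and 243 CPM in CKO, so the groups overlapped, as they did in Esamhi (153 and 121, then 154 and 142 CPM). In pDC it was at 404 and 431 CPM in WT and 557 and 533 CPM in CKO (1.31-fold), and in Esamlo at 153 and 144 CPM in WT and 193 and 189 CPM in CKO (1.28-fold). These 2 subsets had no overlap.

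Itgb2 was at 727 and 668 CPM in Dec205 WT and 624 and 677 CPM in CKO, at 765 and 782 then 854 and 779 CPM in Esamlo, and at 1017 and 932 then 933 and 833 CPM in Esamhi. The groups overlapped in these 3 subsets. In pDC it was at 471 and 365 CPM in WT and 475 and 480 CPM in CKO, just without overlap, and the log2 fold change was 0.01 without WT replicate 2. Over the 4 subsets the log2 fold changes ran from -0.14 to 0.19 for Itgb2 and from 0.11 to 0.39 for Itgal.

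As a description of the fit across all genes, the threshold of an adjusted p under 0.05 was met by 3 of the 4 block genes in each subset, all higher in CKO, where the shares of all genes called higher were 3.44% (Dec205), 1.47% (pDC), 0.457% (Esamlo) and 0.674% (Esamhi). In either direction the shares were 6.78%, 1.85%, 0.551% and 0.877%. Itgax met it in all 4 subsets, Itgad in all but Dec205, Cox6a2 in all but pDC, and Itgam in Dec205 and pDC. Itgal and Itgb2 met it in none. The choice of the genes used this contrast, so nothing is read from these counts. They also rest on few libraries: leaving out 1 library of the subset left calls for 1 to 2 (Dec205), 1 to 3 (pDC), 1 to 2 (Esamlo) and 0 to 1 (Esamhi) of the 4 genes, and every library lowered the count except pDC WT replicate 1 and pDC CKO replicate 2.

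Position along the chromosome was not used to call any gene, and the neighbours outside the block were not chosen by their values. Within 250 kb of the block the table holds 21 other genes, of which 16 were tested. None was called in pDC, Esamlo or Esamhi, where 1.85%, 0.551% and 0.877% of all genes were called in either direction. With shares this low, no call among 16 genes says little about them. Their smallest edgeR adjusted p-values there were 0.15, 0.772 and 0.336. Both CKO libraries stood above both WT libraries for 4 (Dec205), 1 (pDC), 7 (Esamlo) and 5 (Esamhi) of the 16. They stood below for 3, 2, 2 and 2. The shares of all tested genes placed above were 20.1%, 20.6%, 23.1% and 22.4%. In Dec205 1 neighbour was called, beside 6.78% of all genes. This was Pycard, the inflammasome adaptor ASC, at -68.8 kb from the block, which rose from 60.7 ± 2.87 to 101 ± 7.59 CPM (SD, n = 2 per group; log2 0.73, SE 0.15, edgeR adjusted p = 0.0112).

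The median log2 fold change of the 16 neighbours was 0.04 (Dec205), 0.02 (pDC), 0.14 (Esamlo) and 0.05 (Esamhi), beside medians of 1.01, 1.33, 0.88 and 0.91 for the 4 block genes. The block genes were chosen with CKO differences known and the neighbours were not, so nothing is read from the gap between these medians. Armc5, 31 kb after the block, had log2 fold changes of -0.05 (Dec205), 0.07 (pDC), 0.23 (Esamlo) and 0.03 (Esamhi), with edgeR adjusted p from 0.938 to 1. Among the 16 tested neighbours only Pycard, and only in Dec205, passed the test. The highest and lowest values, 4.77 and -2.48 in Dec205, did not.

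Inside the block, 1 further gene has a row, the long non-coding RNA 4931431B13Rik, which lies within the span of Itgad. It was at 1.01 and 1.42 CPM in pDC WT and 3.12 and 3.05 CPM in CKO, at 0.114 and 0.929 then 4.64 and 3.16 CPM in Esamlo, and at 0.16 and 0.934 then 4.48 and 3.72 CPM in Esamhi. Both CKO libraries were above both WT libraries in these 3 subsets and not in Dec205 (0.0759 and 0.473, then 0.359 and 0.389 CPM). It did not pass the test in any subset (edgeR adjusted p from 0.383 to 0.889). Its reads and those from introns of Itgad cannot be told apart without strand.

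**Figure D3:**
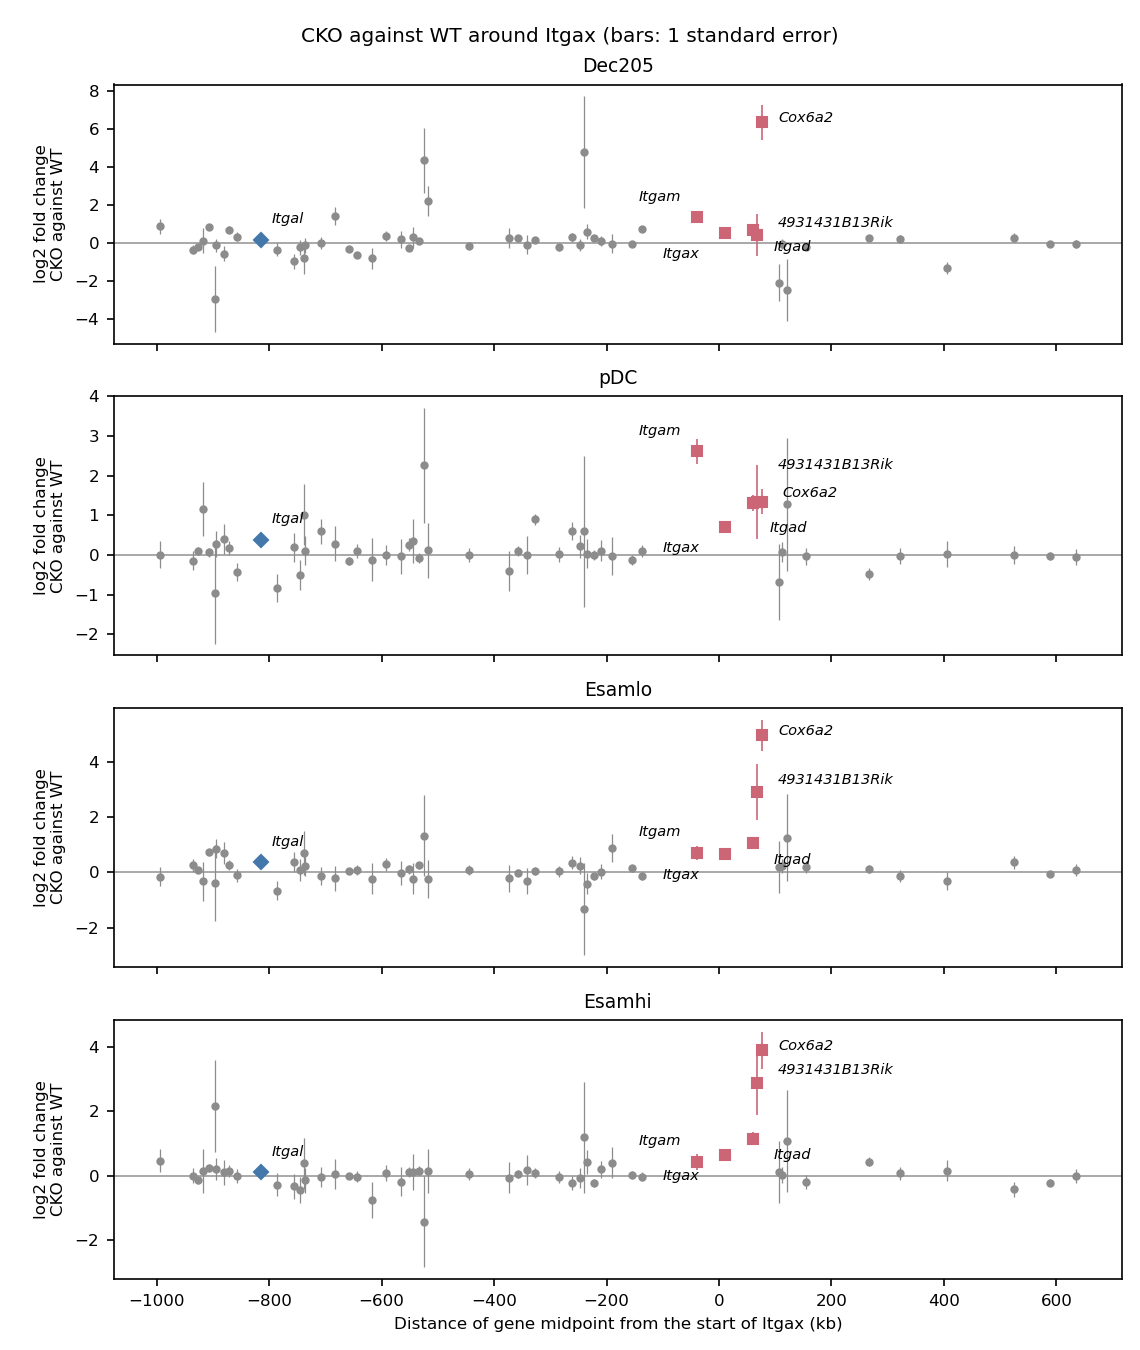
Log2 fold change of CKO against WT for the 58 tested genes whose midpoint lies within 1 Mb of the start of Itgax, by distance in kb, for each subset; bars are 1 standard error, and red squares are the genes of the block with 4931431B13Rik, the blue diamond is Itgal and grey dots are all others. The squares lie above 0 in every panel, Cox6a2 at 6.34, 1.35, 4.96 and 3.89 from top to bottom, while most grey dots lie near 0. The block genes were chosen with such differences known.

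To compare genes with each other, levels were divided by exonic length (CPM per kilobase, RPKM). Among the alpha subunits, Itgax made up 64.1% ± 1.64 of the summed RPKM in Dec205 WT, 66.9% ± 2.45 in Esamlo and 67.5% ± 0.158 in Esamhi (SD, n = 2). In pDC WT the leading alpha subunit was Itgal, with 64.9% ± 4.54, and Itgax had 27.1% ± 4.17. Itgam had 18.4% ± 1.2 in Esamlo and 18.7% ± 0.557 in Esamhi but 1.29% ± 0.577 in Dec205 and 0.936% ± 0.191 in pDC. Itgad held 5.08% to 7.05% in all 4 WT groups.

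In CKO the leading alpha subunit of each subset was the same as in WT, with Itgax at 67.3% ± 1.11 in Dec205, 66.1% ± 0.571 in Esamlo and 69.2% ± 0.436 in Esamhi, and Itgal at 55.8% ± 1.73 in pDC. The Itgad share there was 6.01% ± 0.247 (Dec205), 11.6% ± 0.421 (pDC), 8.36% ± 0.102 (Esamlo) and 9.02% ± 0.0488 (Esamhi). In Esamlo and Esamhi it was above the CKO share of Itgal (6.71% ± 0.267 and 5.31% ± 0.394), which in WT had been the larger of the pair on average. Itgb2 RPKM per summed alpha RPKM was 2.26 ± 0.0873 in Dec205 WT and 1.57 ± 0.127 in CKO, 1.4 ± 0.218 and 1.05 ± 0.0729 in pDC, 0.931 ± 0.0127 and 0.618 ± 0.00624 in Esamlo, and 1.15 ± 0.0194 and 0.682 ± 0.0662 in Esamhi. In each subset the CKO mean was the lower. The alpha sum includes Itgax, Itgam and Itgad, which were chosen with CKO differences known, so nothing is read from the lower ratio.

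**Figure D4:**
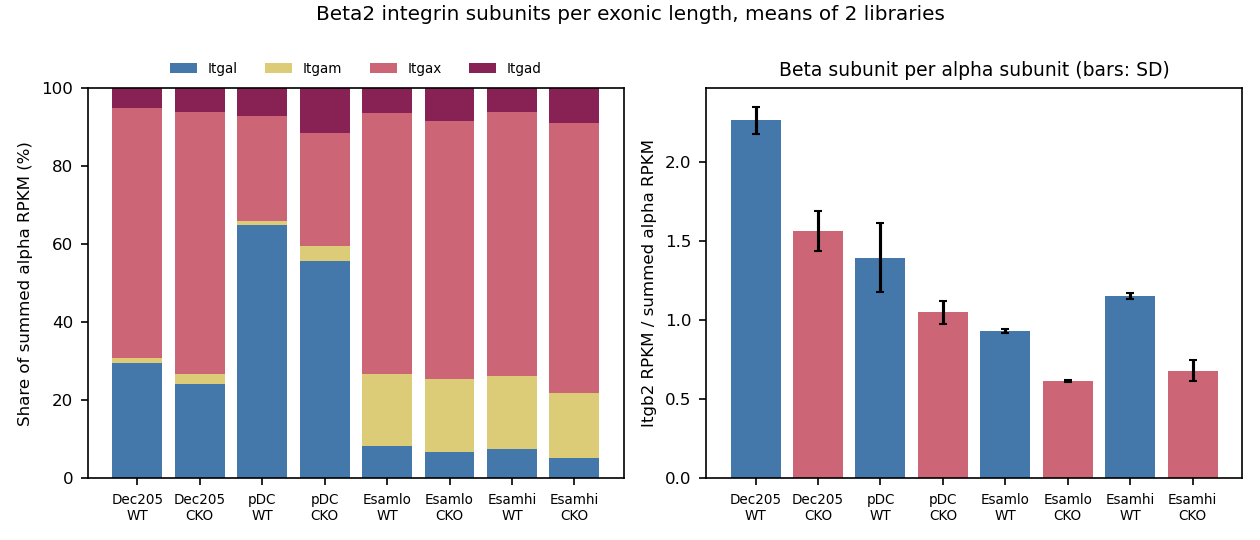
Left, share of each alpha subunit in the summed alpha RPKM (%) in the 8 groups, as means of 2 libraries; right, Itgb2 RPKM divided by the summed alpha RPKM, with SD bars, WT in blue and CKO in red. Itgax fills 64.1% to 69.2% of the bars outside pDC, Itgal leads in pDC, and the ratio on the right is lower in CKO than in WT in each subset. Itgax, Itgam and Itgad in the alpha sum were chosen with CKO differences known.

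On the RPKM scale the absolute differences were ordered by subset. The CKO minus WT difference of Itgax was 27.4 RPKM (Dec205), 16.5 (pDC), 104 (Esamlo) and 107 (Esamhi). That of Itgam was 1.96, 4.71, 31.7 and 18 RPKM in the same order, and that of Itgad 3.08, 10.3, 18.8 and 21.1 RPKM. That of Cox6a2 was 8.98 RPKM (Dec205), 624 (pDC), 23.2 (Esamlo) and 11.4 (Esamhi). The differences of Itgax, Itgam and Itgad were thus larger in the ESAM subsets and that of Cox6a2 in pDC, as were their WT levels. The difference of Itgal was 3.38, 19.5, 6.44 and 1.65 RPKM in the same order of subsets. It was largest in pDC, where the WT level of Itgal was also highest. That of Itgb2 was -15.4, 19.4, 14.3 and -29.9 RPKM. It was lowest in Esamhi, where the WT level of Itgb2 was highest.

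Other genes of integrin biology were taken from lists and tested between CKO and WT with edgeR over the whole table. The lists were drawn up with earlier results of these data known, so their counts are no independent evidence of a direction. Of 21 other integrin subunits 17 were tested. In Dec205 2 rose and 2 fell, with a median log2 fold change of 0.41, beside 3.44% and 3.34% of all genes and a median of 0 over all of them. Itgb7, the beta7 chain that pairs with the alpha4 and alphaE chains, rose 1.73-fold from 280 ± 7.77 to 485 ± 51 CPM (edgeR adjusted p = 0.000305). Itga4, the alpha4 chain, fell from 454 ± 102 to 295 ± 51.4 CPM (edgeR adjusted p = 0.0356), and Itgb1, the widely shared beta1 chain, from 724 ± 14 to 523 ± 36.7 CPM (edgeR adjusted p = 0.0171).

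The remaining call was Itgb4, the beta4 chain of epithelial anchoring junctions, named after its values were seen. It had no count in Dec205 WT, which allows up to 0.228 CPM in a library, and was at 7.96 ± 2.37 CPM in CKO (edgeR adjusted p = 0.00639). It was also the 1 gene of this list called in Esamlo (0.0568 ± 0.0804 and 8.6 ± 0.822 CPM, edgeR adjusted p = 0.0421) and in Esamhi (0 and 3.52 ± 0.758 CPM, edgeR adjusted p = 0.0377). None of the 17 was called in pDC. The shares of all genes called higher were 1.47% (pDC), 0.457% (Esamlo) and 0.674% (Esamhi). Those called lower were 0.377%, 0.0943% and 0.203%. The medians were 0, -0.05 and 0.10 in pDC, Esamlo and Esamhi.

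All 20 genes that activate integrins from inside the cell or anchor them were tested. In Dec205 1 rose and 2 fell, beside 3.44% and 3.34% of all genes. Counts this small are near those shares and say little about the list. Rasgrp2, an activator of the small GTPase Rap1 upstream of integrins, rose 3.36-fold from 1.98 ± 0.211 to 6.66 ± 1.22 CPM (edgeR adjusted p = 0.000534). Vcl, the adhesion protein vinculin, fell from 47.7 ± 18.7 to 24.5 ± 1.54 CPM (edgeR adjusted p = 0.0354), and Stk4, the kinase MST1, from 257 ± 24.6 to 170 ± 4.14 CPM (edgeR adjusted p = 0.00555).

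None of the 20 was called in Esamlo or Esamhi, where 0.551% and 0.877% of all genes were called in either direction. The medians were -0.11, 0.04, 0.05 and 0.05 in Dec205, pDC, Esamlo and Esamhi. Talin and kindlin-3, which bind the beta subunit's tail, are among the genes not called in any subset.

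All 11 ligands and counter-receptors of the list that have a row were tested. Icam1, the main ligand of LFA-1, rose 1.47-fold in Esamlo from 349 ± 18 to 512 ± 15 CPM (edgeR adjusted p = 0.0226), where 0.457% of all genes were called higher. None of the others was called in any subset, and none of the 11 was called in Dec205, pDC or Esamhi, where 6.78%, 1.85% and 0.877% of all genes were called in either direction. The medians were 0.35, 0.11, 0.35 and 0.46 in Dec205, pDC, Esamlo and Esamhi.

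Last, the genes with the most similar level across the 16 libraries were found for each member, by Pearson correlation of log2 CPM. All points share the 4 subsets, whose differences dominate such values, and no test was made. Itgax was most like Zmiz1 (0.988), Oas3 (0.981) and Man1a (0.978), and Itgam most like Cd209b (0.973), Ddx58 (0.970) and Cd101 (0.961). Itgad was less closely matched, with Arhgap25 (0.935), Ice1 (0.916) and Arhgef3 (0.91) nearest. Cox6a2 was most like Csf2rb2 (0.979), Mndal (0.964) and Cables1 (0.958).

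Among the comparison genes, Itgal was most like Rpgrip1 (0.984), Pink1 (0.977) and Tmem229b (0.975), and Itgb2 most like Sash1 (0.973), Fam134b (0.973) and Clip1 (0.972). Within the family Itgax correlated with Itgb2 (0.909), Itgam (0.904) and Itgad (0.753), while Itgal correlated negatively with Itgax (-0.82) and Itgb2 (-0.9). Cox6a2, next to Itgad on the chromosome, had a correlation of 0.144 with it and of 0.83 with Itgal.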

How the data were processed

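RNA of 16 libraries of sorted spleen DCs was measured; RNA was purified with a PicoPure kit and cDNA made with SMART-seq v4, per the labels' protocols. Counts of reads without molecular identifiers are not independent molecules. The values are whole-number counts per gene deposited by the authors; bcl2fastq, Trimmomatic 0.36, Bowtie2 2.2.9 and mm10 are named in the submitters' processing notes, and for the counting tool and its annotation the answer is: not given in the sources used here. The filter on low counts was filterByExpr with the 8 groups, scaling was by TMM, and contrasts were tested with edgeR 4.0.16 (R 4.3.3; quasi-likelihood F test, two-sided, robust, 1 coefficient per group, 8 residual degrees of freedom), with Benjamini-Hochberg adjustment over the 13790 tested genes and calls at an adjusted p under 0.05. Standard errors come from the F statistic. CPM use TMM-scaled library sizes, with 2 as the prior count on the log2 scale. The fit was tested on simulated data. Alternatives were DESeq2 1.42.0, other scalings, no filter, the replicate number as a block and leaving out libraries.

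The members and lists were chosen with earlier results of these data known. Named are the 6 members, the neighbours within 250 kb, per list and comparison at most 4 called genes whose mean log2 CPM reached 3, and the 3 most similar genes with a proper name. Positions came from RefSeq GRCm38.p6 by Entrez identifier and exonic lengths from GENCODE M21. T cell and NK cell marker lists were also summed: over the 16 libraries they reached at most 47.7 and 17.6 CPM. Replicates of each group differed by more than counting noise. Some named genes of the lists and of the neighbourhood are not reported here.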

Additional observations from a re-analysis of the deposited data

How the results depend on the processing

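Between CKO and WT, 239 of 240 alternative values of the 6 genes lay within the replicate spread of the reported one. That spread comes from the same 2 libraries per group. Leaving out 1 of them could hardly move a value beyond it, so the count is no evidence of stability. The exception was Cox6a2 in Dec205 without CKO replicate 1, at 5.12. None of the 4 block genes changed sign. Itgal did, to -0.0172 in Dec205 without CKO replicate 2 and to -0.0503 in Esamhi without WT replicate 2. In WT, 305 of 324 alternatives kept direction and call, 6 lost a call, 4 gained one and 9 changed sign, all of differences that had not passed the test. Those sign changes came on leaving out a library, with ranges of -0.0692 to 0.93 for Itgam between Dec205 and pDC and, between Esamhi and Esamlo, -0.0429 to 0.15 for Itgam, -0.0111 to 0.0864 for Itgax, -0.32 to 0.35 for Itgad, -0.26 to 0.47 for Cox6a2 and -0.29 to 0.0469 for Itgal.

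Counts of called genes over the whole table moved more. CKO against WT gave 935 (Dec205), 255 (pDC), 76 (Esamlo) and 121 (Esamhi); DESeq2 gave 1706, 549, 250 and 305, and a fit of the subset's own 4 libraries 170, 92, 153 and 592. Leaving out a library, with the lone one assumed to vary like the other groups, gave 589 to 1341, 175 to 284, 27 to 38 and 39 to 46. Esamhi against Esamlo in WT gave 801, then 1400 with DESeq2 and 309 to 510 without a library. Of the 4 block genes, the subset's own 4 libraries called 0, 3, 3 and 4, DESeq2 4, 4, 3 and 3, and no filter 2, 3, 3 and 3. The cause was not tested. Scaling by library size only took the median of all genes from 0 to -0.24 between Dec205 and pDC. It went from -0.036 to -0.17 between Dec205 and Esamlo and from -0.04 to -0.14 between Dec205 and Esamhi. The share of calls that were higher went from 52.9% to 39.5% and from 47% to 36.1% in the first 2. With the replicate number as a block the CKO counts were 971, 260, 86 and 136, and Cox6a2 in pDC was called; same-numbered deviations correlated at -0.07 to 0.12 over 28 pairs of groups, so the numbers do not pair the samples. Depth limits Cox6a2 outside pDC in WT, where a count of 0 in a library would allow 0.156 to 0.228 CPM.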
